A study of Oedaleus asiaticus with 9 samples.

Results

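The miR-9, miR-79 and miR-306 group of a grasshopper was followed through 3 stages of development. It comprised 5 of the 365 miRNA entries of the deposited table, chosen by name: miR-9-x, miR-9-y, miR-9-z, miR-79-x and miR-306-x. The species is *Oedaleus asiaticus*, a grassland grasshopper whose nymphs moult through several instars before a final moult to the winged adult. All animals were female, normally fed, otherwise untreated and 3 days into their stage. Small RNA libraries were made at 3 stages, 3 libraries each: 3rd instar nymphs, 5th instar nymphs and adults. In such libraries, fewer cells of a type and less of a miRNA per cell cannot be told apart. The sources do not name the body part sampled. They also do not say if the libraries of a stage are from different animals. The p-values thus weigh differences between stages against the variation among these libraries, and that variation may be technical.

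A miRNA is cut from a hairpin, either arm of which can yield a mature strand, and it recognises messenger RNAs mainly through its seed, bases 2 to 8 from the 5′ end. In flies miR-79 and miR-306 lie in a genomic cluster with members of the miR-9 family. Fly miR-9a limits the number of sense organ precursors by repressing the transcription factor senseless and shapes the wing margin through the LMO gene. Fly miR-79, like miR-4, pairs through its seed with the Brd box, the letters AGCTTTA in the 3′ ends of Notch target messages. Fly miR-306 and miR-79 were found to act together on the ubiquitin ligase RNF146 and to make tumour cells more prone to JNK-driven death. No genome was used here, so whether the 5 entries are neighbours in this grasshopper was not analysed.

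The sequences are shown because the entries' names do not follow their seeds. They are written as deposited, with T for U, 5′ to 3′, with the seed in capitals.
miR-9-z: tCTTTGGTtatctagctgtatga
miR-79-x: cCTTTGGTtatctagctgtatga
miR-9-x: cTTTGGTGatgtagctgtatga
miR-9-y: aTAAAGCTagattaccgaagtc
miR-79-y: aTAAAGCTagattaccga
miR-306-x: tCAGGTACtgagtgactctgaga
miR-275-y: tCAGGTACctgaagtagcgcgcg

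The entry miR-79-x differed from miR-9-z by the single substitution T1C, with positions counted from 1 at the 5′ end of miR-9-z, and the remaining 22 of 23 bases were identical. Both therefore carry the seed CTTTGGT, which no other entry of the table held. Whether reads of miR-9-z, with a changed first base, were counted as miR-79-x was not tested. Set against miR-9-z from its base 2 onward, miR-9-x had 20 of 22 bases in common, with the substitutions T9G and C12G. Its 5′ end lies 1 base further in, and the base changed by T9G falls within its seed, TTTGGTG, which no other entry held. The seed of miR-9-y, TAAAGCT, is the reverse complement of the Brd box and was shared with miR-79-y and miR-79-z. The Brd box seed known from fly miR-79 is thus carried here by miR-9-y, miR-79-y and miR-79-z, but not by miR-79-x. The 18 nt entry miR-79-y equals the first 18 bases of miR-9-y, and reads of one could have been counted in the other. miR-306-x shared its seed and its first 8 bases with miR-275-y, of a family needed for blood digestion and egg development in mosquitoes, and was identical to it at 10 of 23 positions.

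The arms were compared by the duplex that RNAduplex predicts for each member with each of the other 364 entries, a description of sequence only. For miR-9-z the entry with the lowest energy was miR-9-y, at -21.3 kcal/mol with 18 base pairs. miR-9-y also ranked first for miR-79-x (-21.6 kcal/mol, 18 pairs) and second for miR-9-x (-21.4 kcal/mol, 18 pairs), after miR-79-z. With miR-306-x, miR-9-y ranked 309 of 364 by energy (-5.8 kcal/mol). The energies of miR-9-y with miR-9-z, miR-79-x and miR-9-x were close to each other, and which of them shares a hairpin with miR-9-y was not analysed.

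The 9 libraries held between 1462586 and 5309504 counts over all entries, a 3.63-fold range, with adult 1 the shallowest. Levels are given as CPM, the count scaled by the library's total multiplied by an edgeR factor for that library (TMM). The factors ran from 0.854 (3rd instar 2) to 1.17 (5th instar 3), so CPM differ from plain shares of the library's counts. Each read stands for a whole small RNA, so levels need no division by length. All 5 members were among the 179 of 365 entries that passed the filter on low counts and were tested, and all had counts in all 9 libraries.

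The levels of the 5 members spanned nearly 3 orders of magnitude and fell into 3 ranges. miR-306-x was the most abundant, at 7068 ± 572 CPM over the 9 libraries (SD), and ranked between 8 and 11 among all entries of a library. miR-9-z followed at 4935 ± 1383 CPM, with ranks of 12 to 17. miR-9-x (187 ± 25.6 CPM) and miR-9-y (161 ± 15.1 CPM) were rarer and lay close together. miR-79-x averaged 8.31 ± 2.54 CPM, from 6 to 41 counts in a library and 218 counts in all. The order of miR-306-x and miR-9-z held within every library, although their CPM ranges overlapped in the 3rd instar. The order of miR-9-x and miR-9-y did not hold throughout: the ratio of miR-9-x to miR-9-y lay between 0.940 and 1.25 in the adult libraries. The Wilson 95% interval of a member's share of a library was at most 0.0296 percentage points wide, counting error only.

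**Figure D1:**
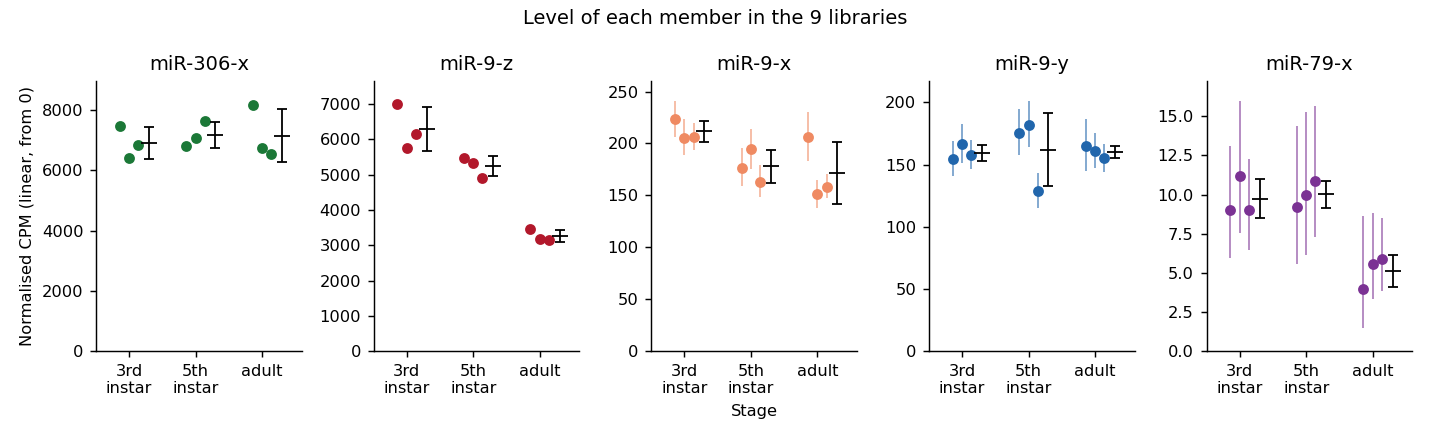
Normalised CPM (linear axis from 0, one scale per panel) of the 5 members in the 3rd instar, 5th instar and adult libraries. Coloured points are single libraries with their exact Poisson 95% counting intervals, black marks are means with SD (n = 3). The adult libraries of miR-9-z, at 3156 to 3457 CPM, lie below all 6 nymphal libraries, and those of miR-306-x do not stand apart.

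Over the 3 stages, miR-9-z was the 1 member that passed the test, and no test separated it from miR-79-x, whose folds were of similar size. It stood at 6990, 5768 and 6148 CPM in the 3rd instar libraries, at 5482, 5323 and 4920 CPM in the 5th instar libraries and at 3457, 3171 and 3156 CPM in the adult libraries. In CPM the 3 stages did not overlap, and the adult libraries were the lowest. By share of the library's counts, the 3rd instar (0.688%, 0.493% and 0.525%) and the 5th (0.563%, 0.584% and 0.574%) overlapped. The adult libraries (0.357%, 0.279% and 0.367%) were again the lowest. edgeR's quasi-likelihood test for any difference among the stages gave an adjusted p of 0.00167 for miR-9-z, the fourth-smallest p of the 179 tested entries. It was the 1 member of 5 with an adjusted p under 0.05, which 4.47% of all tested entries reached. An unadjusted p under 0.05 was reached by 2 of 5 members, miR-9-z and miR-79-x, and by 24.6% of all tested entries. miR-306-x and miR-9-y were among the steadiest entries of the table, with a coefficient of variation of CPM over the 9 libraries of 8.10% and 9.43%, smaller values being held by 1 and 4 of the 179 tested entries. As plain shares of the library's counts, a scaling added after seeing the data, these values were 16.7% for miR-306-x, with 14 entries below it, and 13.8% for miR-9-y, with 3 below it. For miR-9-x the coefficient was 13.7% of CPM, with 16 entries below it, and 14.1% of shares, with 4 below it. For miR-9-z the coefficient was 28.0% of CPM, with 74 entries below it, and 26.7% of shares, with 66 below it. Among the 55 tested entries that averaged at least 100 CPM, 44 had a smaller coefficient of CPM than miR-9-z. The same number was 1 for miR-306-x, 4 for miR-9-y and 14 for miR-9-x. For the other 4 members, the adjusted p of the test over the stages was 0.190 (miR-79-x), 0.348 (miR-9-x), 0.926 (miR-306-x) and 0.992 (miR-9-y).

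Between the adult and the 3rd instar, the ends of the series, miR-9-z fell to 0.517 of its 3rd instar level. It averaged 3261 ± 170 CPM in adults and 6302 ± 626 CPM in the 3rd instar (SD, n = 3 each), a log2 fold change of -0.95 ± 0.13 (SE; edgeR's quasi-likelihood test, Benjamini-Hochberg adjusted p = 0.000626 over all entries), and was lower in 3 of 3 adult libraries. The study's limits, an adjusted p under 0.05 with an absolute log2 fold change above 1, were met by 0 of 5 members with edgeR, against 3.91% of all tested entries. With DESeq2 they were met by 1 member (miR-9-z at -1.002, adjusted p = 9.42e-17) and by 16 of the 179 tested entries. miR-9-z lay near the limit of fold, and edgeR with RLE factors also gave -1.002 (adjusted p = 0.000296). An adjusted p under 0.05, whatever the fold, was reached by 1 of 5 members with edgeR, against 7.82% of all tested entries, and an unadjusted p under 0.05 by 2 of 5, against 35.8%. With library totals as the only scaling, which shifted the median of all entries by 0.18, the log2 fold change of miR-9-z was -0.76 (adjusted p = 0.0225).

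miR-79-x, which shares its seed with miR-9-z, had a similar fold in adults at a far lower level, with 3.97, 5.59 and 5.86 CPM in adults and 9.02, 11.2 and 9.04 CPM in the 3rd instar. The adult libraries lay below those of the 3rd instar. The exact Poisson 95% interval of the lowest library, adult 1 with 6 counts, ran from 1.46 to 8.64 CPM, and the intervals of the adult and 3rd instar libraries overlapped. Its log2 fold change was -0.89 ± 0.35 (SE), which did not pass (edgeR's adjusted p = 0.104, unadjusted 0.0266). Without an overlap of libraries and lower in adults were 2 of 5 members, miR-9-z and miR-79-x, against 15.1% of all tested entries.

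The remaining members did not pass in that comparison. miR-9-x, the form with the shifted seed, had 206, 151 and 159 CPM in adults and 223, 206 and 207 CPM in the 3rd instar, a log2 fold change of -0.30 ± 0.17 (edgeR's adjusted p = 0.225). Its highest adult library, adult 1, lay within the 3rd instar range. miR-9-y, with the Brd box seed, averaged 160 ± 4.85 CPM in adults and 160 ± 6.41 CPM in the 3rd instar, which is 0.0052 ± 0.17 in log2 fold change (adjusted p = 0.987). miR-306-x had 8142, 6727 and 6535 CPM in adults and 7477, 6415 and 6816 CPM in the 3rd instar, with overlapping libraries. It averaged 7135 ± 877 CPM in adults and 6903 ± 536 CPM in the 3rd instar, or 0.048 ± 0.14 in log2 fold change (adjusted p = 0.838). The signs of both the miR-9-y and the miR-306-x values turned under RLE factors and DESeq2. The median log2 fold change of the 5 members was -0.30, beside 0.050 over all tested entries.

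Between the adult and the 5th instar, the step across the final moult, miR-9-z fell to 0.622 of its 5th instar level. It averaged 3261 ± 170 CPM in adults and 5242 ± 289 CPM in the 5th instar, a log2 fold change of -0.68 ± 0.13 (SE; edgeR's adjusted p = 0.0151), the second-smallest p of the 179 entries. Both limits were met by 0 of 5 members with edgeR and 0 with DESeq2. Of all tested entries, 1.12% met them with edgeR and 2 of 179 with DESeq2. An adjusted p under 0.05 was reached by 1 of 5 members and by 1.68% of all tested entries, and an unadjusted p under 0.05 by 2 of 5 members, against 10.1%. The call did not hold without 5th instar 1 (adjusted p = 0.149), 5th instar 2 (0.0532), adult 2 (0.0667) or adult 3 (0.0950), nor with library totals alone (0.0715), while the log2 fold change stayed between -0.78 and -0.66 in all 21 alternatives. miR-79-x, with 9.21, 9.97 and 10.9 CPM in the 5th instar libraries, had a log2 fold change of -0.93 ± 0.35 in adults (adjusted p = 0.296, unadjusted 0.0223). Again miR-9-z and miR-79-x were the 2 of 5 members without an overlap of libraries, both lower in adults, against 5.03% of all tested entries. The other 3 members had log2 fold changes between -0.052 and -0.0063 (adjusted p 0.950 to 0.995). The median over the members was -0.052, beside 0.079 over all tested entries.

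Between the 5th and the 3rd instar, 0 of 5 members passed with edgeR or with DESeq2 by either limit, and 0 had an unadjusted edgeR p under 0.05. In that comparison 1.68% of all tested entries met both limits, 2.23% an adjusted p under 0.05 and 17.3% an unadjusted p under 0.05, all with edgeR. With DESeq2, 10 of the 179 tested entries met both limits. miR-9-z averaged 5242 ± 289 CPM in the 5th instar and 6302 ± 626 CPM at the 3rd instar, a log2 fold change of -0.27 ± 0.13 (edgeR's adjusted p = 0.282). In CPM its libraries did not overlap, and nor did those of miR-9-x. miR-9-x averaged 178 ± 15.6 CPM in the 5th and 212 ± 9.95 CPM in the 3rd instar (-0.25 ± 0.17, edgeR's adjusted p = 0.427). These 2 of 5 members were lower in the 5th instar without an overlap, as were 15.1% of all tested entries. With library totals as the only scaling, which shifted the median of all entries by 0.29, both changed sign, to 0.013 for miR-9-z and 0.032 for miR-9-x. The log2 fold changes of the other 3 members lay between 0.021 and 0.054 (adjusted p 0.837 to 0.963). The median over the members was 0.021, beside 0.0036 over all tested entries.

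**Figure D2:**
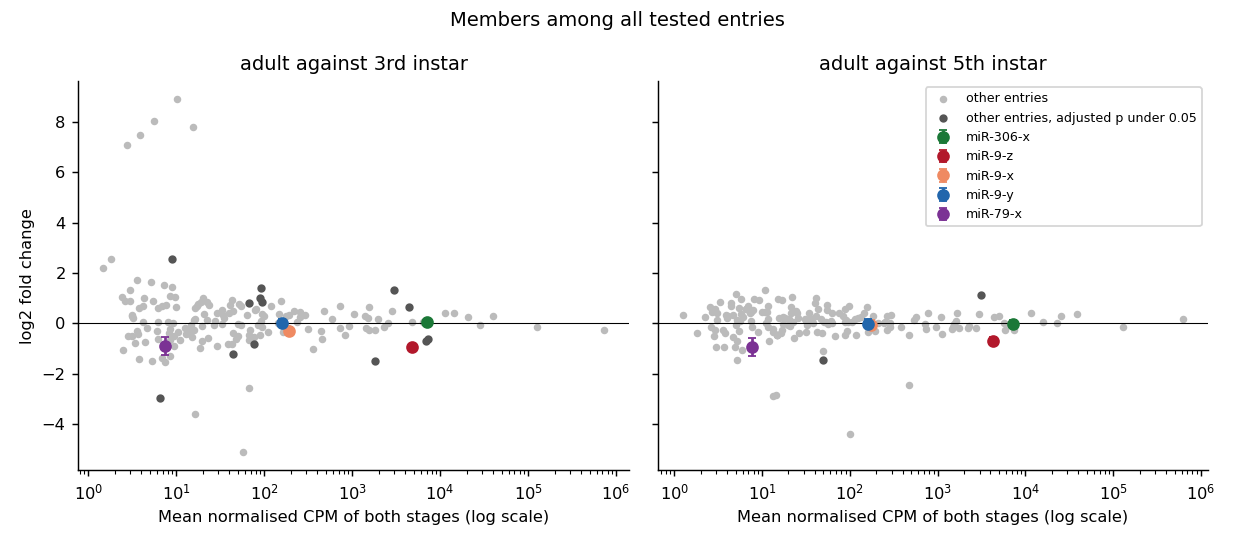
Log2 fold change of each of the 179 tested entries against its mean normalised CPM over both stages (log axis), for the adult against the 3rd instar and against the 5th instar. Coloured points are the members with their SE, dark grey points other entries with an adjusted p under 0.05. miR-9-z lies below 0 in both panels, at -0.95 and -0.68, with miR-306-x and miR-9-y close to 0.

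The ratio of 2 entries in the same library does not depend on how libraries are scaled, and all 10 pairs of members were compared in this way over the 3 stages. The pairs were examined with the fall of miR-9-z already known, so they add a measure of its size free of scaling rather than independent evidence. The ratio of miR-306-x to miR-9-z was 1.07, 1.11 and 1.11 in the 3rd instar libraries, 1.24, 1.33 and 1.55 at the 5th and 2.35, 2.12 and 2.07 at the adult stage. None of the stages overlapped, and in log2 units the adult mean exceeded that of the 3rd instar by 0.99. A two-sided exact permutation test of the 9 libraries gave p = 0.00357, the smallest it can give (adjusted p = 0.0357 over the 10 pairs).

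miR-9-z was also lower in adults relative to miR-9-y, the entry with the lowest predicted duplex energy for it. The ratio of miR-9-z to miR-9-y was 45.2, 34.6 and 39.0 at the 3rd instar, 31.2, 29.2 and 38.2 at the 5th and 20.9, 19.7 and 20.3 at the adult stage. The adult libraries lay apart from both nymphal stages, which overlapped each other. The adult minus 3rd instar difference was -0.95 on the log2 scale (exact permutation test over the stages, p = 0.00714, adjusted p = 0.0357). Against miR-9-x, the form with the shifted seed, the ratio of miR-9-z averaged 29.7 ± 1.63 at the 3rd instar, 29.5 ± 1.91 at the 5th and 19.2 ± 2.18 at the adult stage (SD, n = 3 each). The adult libraries again lay below all nymphal libraries, with p = 0.0321 in the exact permutation test and an adjusted p of 0.0510.

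No such difference was seen in the pair with the common seed. The ratio of miR-9-z to miR-79-x averaged 647 ± 129 at the 3rd instar, 515 ± 68.4 at the 5th and 628 ± 153 at the adult stage, and the stages overlapped (exact permutation test, p = 0.429, adjusted p = 0.476). The miR-79-x side of this ratio rested on 6 to 41 counts per library. Whether those counts are separate from reads of miR-9-z, which differs only in its first base, was not tested. The ratio of miR-306-x to miR-9-y had the smallest change, an adult minus 3rd instar difference of 0.037 in log2 (p = 0.979 in the exact permutation test). The third pair with an adjusted p under 0.05 was miR-9-x to miR-79-x, with 21.7 ± 3.22 at the 3rd instar, 17.5 ± 2.40 at the 5th and 33.6 ± 12.4 at the adult stage (exact permutation test, p = 0.0107, adjusted p = 0.0357). Its adult mean rested on adult 1, where the ratio was 47.9, and without that library the adult minus 3rd instar difference was 0.30 in place of 0.58 in log2 (adjusted p = 0.0714). That call also did not hold without 3rd instar 1 (0.0714), 3rd instar 3 (0.0655), 5th instar 1 or 2 (0.0500 each) or 5th instar 3 (0.0765). The call for miR-306-x to miR-9-z did not hold without 3rd instar 1 (adjusted p = 0.0625) or 3rd instar 3 (0.0536), and that for miR-9-z to miR-9-y did not hold without either of these (0.0625 and 0.0536) or without 5th instar 1 or 5th instar 2 (0.0500 each). The size of the difference stayed between 0.93 and 1.03 for the first pair and between -1.05 and -0.85 for the second when each library was left out. Of the other 4 pairs, miR-306-x to miR-9-x, miR-306-x to miR-79-x and miR-9-y to miR-79-x had an adjusted p of 0.0510 each, and miR-9-x to miR-9-y had 0.223. An exact permutation test of a single pair of stages, 3 libraries against 3, cannot go below p = 0.10 and was not run.

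**Figure D3:**
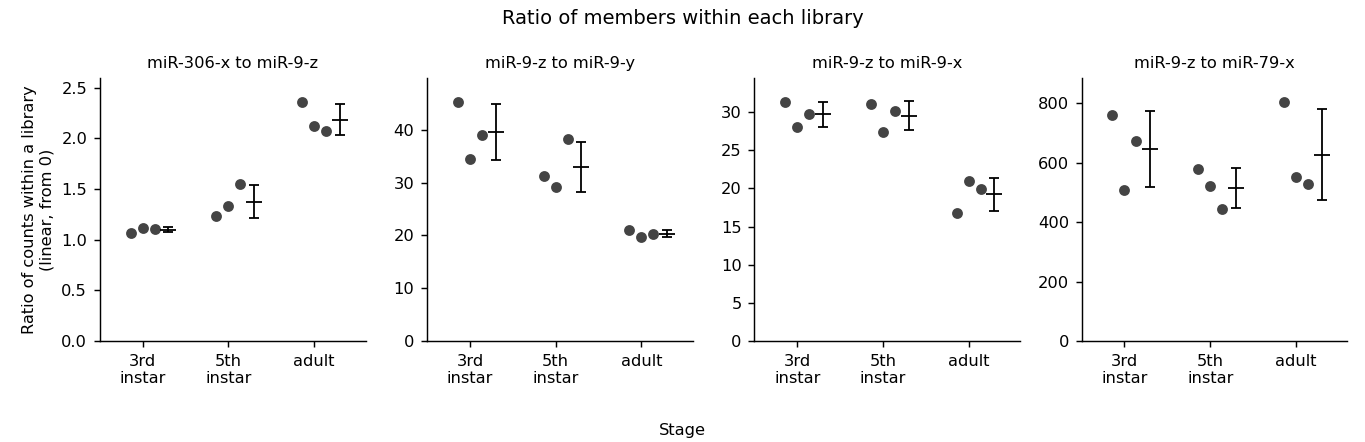
Ratio of counts of paired members within each library (linear axes from 0) in the 3rd instar, 5th instar and adult, with points for single libraries and black marks for mean and SD (n = 3). The adult libraries stand apart in the first 3 panels (2.07 to 2.35, 19.7 to 20.9 and 16.8 to 21.0) but not for miR-9-z to miR-79-x.

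Within the counts named miR-9, the share of the most abundant entry was lowest in the adult libraries. The 3 entries summed here differ in seed. miR-9-z made up 94.4% ± 0.469 of the summed counts of miR-9-x, miR-9-y and miR-9-z at the 3rd instar, 93.9% ± 0.504 at the 5th and 90.8% ± 0.398 at the adult stage (SD, n = 3 each). miR-9-x took 3.18% ± 0.159 at the 3rd instar, 3.19% ± 0.199 at the 5th and 4.76% ± 0.545 at the adult stage. miR-9-y took 2.41% ± 0.310 at the 3rd instar, 2.89% ± 0.377 at the 5th and 4.46% ± 0.155 at the adult stage. The highest adult library was at 91.0% and the lowest nymphal library at 93.4%. These shares restate the ratios above and were not tested again.

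The Brd box seed was present in a long and a short form, miR-9-y and miR-79-y, and in the rare 24 nt entry miR-79-z (9 counts in 3 libraries). miR-79-y, the 18 nt entry nested in miR-9-y, held 28.7% ± 1.63 of the summed counts of both at the 3rd instar, 35.1% ± 1.30 at the 5th and 37.3% ± 3.14 at the adult stage. The 3rd instar libraries, at 27.1%, 28.7% and 30.4%, lay below all others. As its values had been seen when it was chosen, this share is given without a test. miR-79-y itself ranged from 83.8 to 111 CPM in the 3 adult libraries and from 57.5 to 68.8 CPM in those of the 3rd instar, a log2 fold change of 0.57 ± 0.19 (edgeR's adjusted p = 0.0817). Adding its counts to miR-9-y raised the number of pairs with an adjusted p under 0.05 to 8 of 10. Some of these pairs do not contain miR-9-y: miR-306-x to miR-9-x, miR-306-x to miR-79-x and miR-9-z to miR-9-x. Their ratios were unchanged, and they came to 0.0446 each (exact permutation test) through the adjustment over the pairs alone. miR-79-x made up 0.156% ± 0.0334 of its sum with miR-9-z at the 3rd instar, 0.192% ± 0.0270 at the 5th and 0.159% ± 0.0385 at the adult stage, within overlapping counting intervals.

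**Figure D4:**
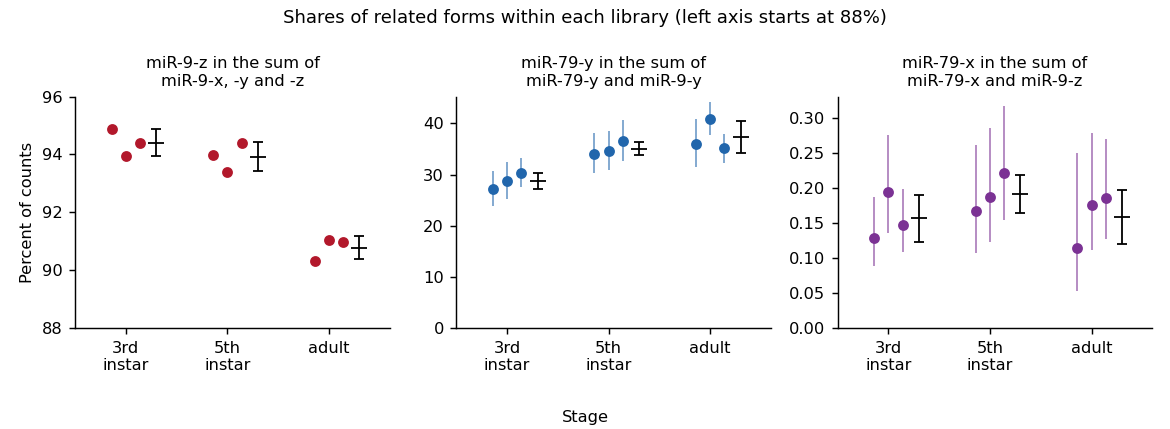
Share of counts within each library, in percent, of miR-9-z among the 3 miR-9 entries (axis from 88%), of miR-79-y in its sum with miR-9-y and of miR-79-x in its sum with miR-9-z (axes from 0), by stage. Points are libraries, coloured lines Wilson 95% intervals where drawn, black marks mean and SD (n = 3). miR-9-z averages 90.8% in adults, and miR-79-y is lowest in the 3rd instar at 28.7%.

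Other entries with a member's seed were few. miR-79-z (9 counts in 3 libraries) and miR-306-z (6 counts in 5 libraries) were too rare to be tested. miR-306-z was at 0 in all 3 libraries of the 3rd instar, where a count of 0 allows up to 1.12 CPM (3 counts, in 3rd instar 2). miR-275-y, with the seed of miR-306-x, averaged 2209 ± 372 CPM in adults and 2420 ± 110 CPM in the 3rd instar, a log2 fold change of -0.13 ± 0.15 (edgeR's adjusted p = 0.550). The rarer miR-275-z averaged 12.4 ± 3.04 CPM in adults and 17.7 ± 4.61 CPM in the 3rd instar (-0.53 ± 0.35, adjusted p = 0.290). No tested entry with the seed CAGGTAC, the 3 being miR-306-x, miR-275-y and miR-275-z, had an adjusted p under 0.05 in any of the 3 comparisons of stages.

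Over the 9 libraries, the entry most like miR-9-z among the other 173 candidates was miR-998-y (Pearson's r of log2 CPM = 0.871), followed by miR-279-z (0.859), of a family that represses the formation of certain sensory neurons in flies, and miR-2765-x (0.846). Most like miR-79-x were miR-2788-y (0.909), miR-92-y (0.861) and miR-998-y (0.761). miR-9-x was most like miR-71-z and miR-71-x (0.841 and 0.811) and miR-7-x (0.799). miR-9-y resembled the low entries miR-11987-z (0.906), miR-8315-y (0.900) and miR-6980-x (0.764), and miR-306-x resembled bantam-y (0.779), miR-12-z (0.778) and a predicted entry (0.731). These are the highest of many values over 9 points that share stage and library scaling, and are given as a description. Between members, r was 0.810 for miR-9-z with miR-79-x and 0.679 for miR-9-z with miR-9-x, but 0.051 for miR-9-z with miR-9-y and -0.013 for miR-9-z with miR-306-x.

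Other miRNA families that act on Notch target genes or in sense organs in flies were read from a list by family number: miR-2, miR-4, miR-6, miR-7, miR-11, miR-13 and miR-308, whose fly members pair with the K box, Brd box or GY box, and miR-263, miR-279 and miR-996 of sense organs and sensory neurons. The table held 13 such entries, of which 9 were tested. In adults against the 3rd instar, 2 were higher and 7 lower, and 1 passed an adjusted p under 0.05 by edgeR, a limit reached by 7.82% of all tested entries, with a median log2 fold change of -0.25 beside 0.050 over all tested entries. An unadjusted p under 0.05 was reached by 2 of the 9, miR-279-z and miR-11-y, against 35.8% of all tested entries. The entry that passed was miR-279-z, which fell to 5293 ± 432 CPM in adults, against 8599 ± 785 CPM in the 3rd instar (log2 fold change -0.70 ± 0.15, edgeR's adjusted p = 0.0162). The K box entries miR-11-y (-0.49 ± 0.22, adjusted p = 0.137) and miR-2-y (-0.19 ± 0.12, adjusted p = 0.258) did not pass. In adults against the 5th instar 3 were higher and 6 lower (median -0.17, beside 0.079 over all tested entries), with 0 passing by edgeR, 0 by DESeq2 and 0 at an unadjusted edgeR p under 0.05 (1.68% of all tested entries passed by edgeR and 10.1% had such an unadjusted p). In the 5th against the 3rd instar 4 were higher and 5 lower (median -0.086, beside 0.0036), with 0 passing by edgeR, 1 by DESeq2 and 1 at an unadjusted edgeR p under 0.05, miR-279-z in both cases (2.23% of all tested entries passed by edgeR and 17.3% had such an unadjusted p). By DESeq2, 10 of the 179 tested entries met an adjusted p under 0.05 together with the limit of fold.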

How the data were processed

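The labels' protocols describe gel recovery of small RNA (15 to 30 nt), adapter ligation, PCR and single-end reads of 50 bp. Which tools aligned and counted the reads was not given in the sources used here. Per the file headers, the authors deposited raw read counts and TPM values per entry. The counts are whole numbers. The deposited TPM, counts relative to a library total with 0 written as 0.01, served only to derive that total, of which the listed counts are 97.2% to 98.6%.

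Counts of the entries that passed edgeR's filter by stage (179 of 365) were fitted with edgeR 4.0.16 in R 4.3.3 (TMM factors, robust quasi-likelihood, all 9 libraries, 1 mean per stage). p-values were adjusted over all 179 entries. Each standard error is |log2 fold change| divided by √F. Ratios of members had 0.5 added to each count. Correlations used log2(CPM + 0.5). Duplexes came from RNAduplex 2.7.2. The fit was tried on simulated counts with the same dispersion for all entries, and the permutation test on simulated normal values. Entries that differ in spread were not covered by these simulations. All 5 members are named by rule, with entries of the same seed, the 3 entries most like each and the 3 list entries with the smallest p. Members and lists were chosen with earlier results of these data known. The alternatives were DESeq2 1.42.0, other scalings and filters, known entries only, summed identical sequences, only the stages compared, a replicate block and leaving out each library. TPM totals and leaving out the most abundant entry were added after seeing the data. Intervals and floors cover counting error only, as no molecular identifiers are mentioned.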

Additional observations from a re-analysis of the deposited data

How the results depend on the processing

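The fall of miR-9-z in adults against the 3rd instar kept an adjusted p under 0.05 in all 21 alternatives (log2 fold change -1.08 to -0.76) and passed both limits in 6 of them; against the 5th instar the adjusted p passed in 15 of 21, the lost calls being the 4 libraries named above and the scalings by library totals (-0.78, adjusted p = 0.0715) and by TPM totals (-0.78, 0.0630). The cause was not tested. Depth limits miR-79-x, which had 6 counts in adult 1.

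Calls over all entries by both limits, 3 in the 5th against the 3rd instar, became 10 with DESeq2 and 1 with library totals, TPM totals or known entries only (1 to 3 without each library). The 2 calls in adults against the 5th instar became 1 with either set of totals and 0 with the 2 stages alone (0 to 2). The 7 in adults against the 3rd instar became 16 with DESeq2, 19 and 20 with library and TPM totals and 14 by an adjusted p alone (3 to 9). The 8 entries differing among the stages became 23 with DESeq2 and 13 with TPM totals (4 to 9). The 3 pairs of members became 8 with miR-79-y added to miR-9-y, in part through the adjustment alone (0 to 4).

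Several values changed sign. In adults against the 3rd instar, with DESeq2, RLE factors, the 5 most abundant entries left out, at least 10 CPM in 3 libraries and known entries only, miR-9-y came to -0.047, -0.047, -0.083, -0.069 and -0.086 and miR-306-x to -0.0069, -0.0067, -0.045, -0.031 and -0.045. miR-9-y came to -0.0053 with these 2 stages alone. In the 5th against the 3rd instar miR-9-y came to -0.032 and miR-79-x to -0.0048 without the 5 most abundant entries, and miR-9-y to -0.0077 with no filter and -0.0012 with known entries only. There miR-9-x (-0.25) came to 0.032 and 0.030 and miR-9-z (-0.27) to 0.013 and 0.011 with library and TPM totals. In adults against the 5th instar, with no filter, miR-9-y came to 0.0080 and miR-306-x to 0.012. The ratio of miR-306-x to miR-9-y, adult minus 3rd instar, came to -0.15 with miR-79-y added.

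Without each library, log2 fold changes ran from -0.040 to 0.20 (miR-9-y) and from -0.00026 to 0.16 (miR-306-x) in the 5th against the 3rd instar. In adults against the 5th instar they ran from -0.22 to 0.021 (miR-9-x), -0.17 to 0.054 (miR-9-y) and -0.13 to 0.048 (miR-306-x), and in adults against the 3rd instar from -0.032 to 0.062 (miR-9-y) and -0.076 to 0.15 (miR-306-x). The differences in ratio ran from -0.046 to 0.12 (miR-306-x to miR-9-y) and -0.24 to 0.079 (miR-9-z to miR-79-x).

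Replicate numbers are shared by the stages, but deviations of same-numbered libraries from their stage means correlated between -0.23 and 0.42, over 0.1 in 5 of 9 pairs, against 4 of 18 pairs with other numbers (-0.43 to 0.28), and 5 of 9 libraries correlated best with their own number. The numbers were not taken as pairs because that was to need every same-numbered pair over 0.1. With the number as a replicate block, calls came to 2, 2 and 7 in the 3 comparisons and 11 among the stages, and miR-9-z to -0.95 in adults against the 3rd instar. For the ratios, an exact permutation test within the block cannot go below p = 0.0278, and 0 of the 10 pairs passed after adjustment.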
